A study of Homo sapiens with 6 samples.

Results

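The genes described here are those that KEGG places in its neuroactive ligand-receptor interaction pathway, as read from the pathway column of the deposited count table. They encode neurotransmitter, peptide hormone, purine and lipid receptors together with some of the peptides that bind them. Of 16279 rows, 238 carry the pathway. Among these, 10 were left out because they also carry the complement and coagulation pathway, and 4 more (ADM, NR3C1, PTGER2 and PTGER4) were left out by name, leaving 224 members. The pathway was chosen by an earlier gene set result on the counts of these same 6 libraries, Control against rhChem157S, so the differences between the groups are given as a description and support no statement about the pathway. RNA came from 12Z, 1 established line of human endometriotic epithelial cells. The Control group (n = 3) was left untreated, and the rhChem157S group (n = 3) received 10 ng/mL recombinant human chemerin ending at serine 157 for 48 h. Both groups were grown in the same medium, and no other agent or genetic change is named for either. The libraries are labelled as biological replicates with no culture named for each, so p-values measure the spread between these libraries, part of which may be technical.

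Most of these receptors sit in the cell membrane. Ion channels of the family open when acetylcholine, GABA, glycine, glutamate or ATP binds, and let ions pass within moments. G protein-coupled receptors instead pass the signal to G proteins and on to cyclic AMP or calcium. Many are best known from neurons, but purinergic, lipid mediator and oxytocin receptors are also used by epithelia and by the uterus. Chemerin itself is a secreted protein whose receptors are also G protein-coupled. Its receptors are not among the members.

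Library totals ran from 35430881 to 38341643 counts, and 1 count in the smallest library was 0.0282 CPM, the count scaled to the library total. Of the library labels, rhChem157S 3 stood furthest from the rest, with Pearson correlations of 0.949 to 0.976 with the other 5 (log2 CPM, computed over genes, which are no replicates). Its scaling factor by the trimmed mean of M-values (TMM) was 0.898, against 0.973 and 1.00 in the other treated libraries and 1.04 to 1.05 in Control. Of the keratin genes of simple epithelia, KRT8 was at 748 to 966 FPKM, KRT18 at 555 to 640 and KRT19 at 277 to 374, and KRT7 was at most 1.93. The epithelial gene MUC1 was at 6.79 to 14.4 FPKM. EPCAM was at most 0.807 FPKM and CDH1, which encodes E-cadherin, at most 0.381 FPKM in any library. The stromal genes LUM and DCN ranged from 65.0 to 156 and from 10.9 to 37.1 FPKM. PDGFRB, MME and HAND2, also stromal, lay between 5.52 and 21.2 FPKM, and IGF1 had no row. The level of a gene is given throughout in FPKM, the read count scaled to the length of the gene and to the total of the library.

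Promoter sequence was read from RefSeq (GRCh38.p14) as 300 bases around each start, most of them upstream, and 180 of the 224 members matched an entry. Those of NPY, the most abundant member, and of 3 receptors that were lower in every treated library from different families are shown, so that the start regions of genes on which the results turn can be read. Each is written 5′ to 3′ on the strand of the gene, and capitals mark the GC box GGGCGG or its complement CCGCCC, the letters bound by Sp1-type factors.
NPY (chr7:24283940-24284239, plus strand): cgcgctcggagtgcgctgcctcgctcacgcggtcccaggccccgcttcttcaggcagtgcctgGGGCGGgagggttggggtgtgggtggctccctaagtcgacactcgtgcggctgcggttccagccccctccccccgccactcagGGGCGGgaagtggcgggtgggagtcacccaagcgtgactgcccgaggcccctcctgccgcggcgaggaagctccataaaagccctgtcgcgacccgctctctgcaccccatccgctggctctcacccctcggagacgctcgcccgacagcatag
P2RX7 (chr12:121132626-121132925, plus strand): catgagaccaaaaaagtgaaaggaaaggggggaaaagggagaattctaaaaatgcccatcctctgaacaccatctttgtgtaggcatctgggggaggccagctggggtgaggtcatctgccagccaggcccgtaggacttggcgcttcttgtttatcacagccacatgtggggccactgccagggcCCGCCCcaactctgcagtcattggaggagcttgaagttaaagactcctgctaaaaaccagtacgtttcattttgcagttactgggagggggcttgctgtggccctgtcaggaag
OXTR (chr3:8769564-8769863, minus strand): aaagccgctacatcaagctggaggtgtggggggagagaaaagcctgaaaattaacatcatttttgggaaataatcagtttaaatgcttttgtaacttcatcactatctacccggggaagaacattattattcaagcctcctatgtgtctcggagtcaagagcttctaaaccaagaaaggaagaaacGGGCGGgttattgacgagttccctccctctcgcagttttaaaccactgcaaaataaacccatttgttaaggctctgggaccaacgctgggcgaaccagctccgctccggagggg
CHRM4 (chr11:46391727-46392026, minus strand): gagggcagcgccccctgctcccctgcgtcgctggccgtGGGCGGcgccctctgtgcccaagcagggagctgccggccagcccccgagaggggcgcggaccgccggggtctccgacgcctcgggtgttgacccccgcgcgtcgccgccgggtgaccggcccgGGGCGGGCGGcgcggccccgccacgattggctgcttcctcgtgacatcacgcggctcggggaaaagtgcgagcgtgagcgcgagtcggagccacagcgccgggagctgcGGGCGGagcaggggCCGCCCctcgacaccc
The NPY window held 2 GC boxes, that of CHRM4 held 5, of which 2 overlap, and those of P2RX7 and OXTR held 1 each. The windows differed in base composition, from 46.3% G and C in OXTR and 53.3% in P2RX7 to 71.0% in NPY and 78.3% in CHRM4. CpG dinucleotides numbered 4 in P2RX7, 11 in OXTR, 29 in NPY and 44 in CHRM4.

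Searched on both strands, the GC box was present in 57.2% of the members' promoters, 44.6% of all 27305 promoters and 70.3% of the promoters of tested genes. It was found in 22 of the 30 promoters (73.3%) of members lower in every treated library and in 31 of 49 (63.3%) of the other tested members. The cyclic AMP response element TGACGTCA, also searched on both strands, was present in 4 members (CGA, GABBR1, S1PR2 and SST), or 2.22%, against 1.98% of all promoters. It was in 0 of the 30 windows of lower members, in 2 of 49 of the other tested members and in 3.21% of promoters of tested genes. The TATA motif TATAAA was in 13.9% of members' promoters and 12.0% of all promoters, in 2 of the 30 lower members (6.67%), in 8.16% of the other tested members and in 5.65% of promoters of tested genes. A match is given as letters in a window and not as a bound site.

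Few of the genes were abundant in 12Z cells. The median of the members' mean FPKM over the 6 libraries was 0.0495, against 4.69 over all rows of the table. In 130 members (58.0%) the mean was under 0.1 FPKM, which was the case for 18.7% of the other rows. A further 41 members lay between 0.1 and 1 FPKM, 46 between 1 and 10, and 7 (3.12%, against 35.4% of the other rows) at 10 or more. In 41 members no library had more than 1 count, and 95 (42.4%, against 13.3% of other rows) stayed under 10 counts in every library. Of the members too low to be tested, NTSR1 (neurotensin receptor 1) had the most counts, with 1, 8 and 27 in Control and 3, 4 and 38 with rhChem157S. UTS2B, which encodes a urotensin-like peptide, followed with 4, 5 and 10 counts against 10, 24 and 6. Neither gene separated the groups.

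**Figure D1:**
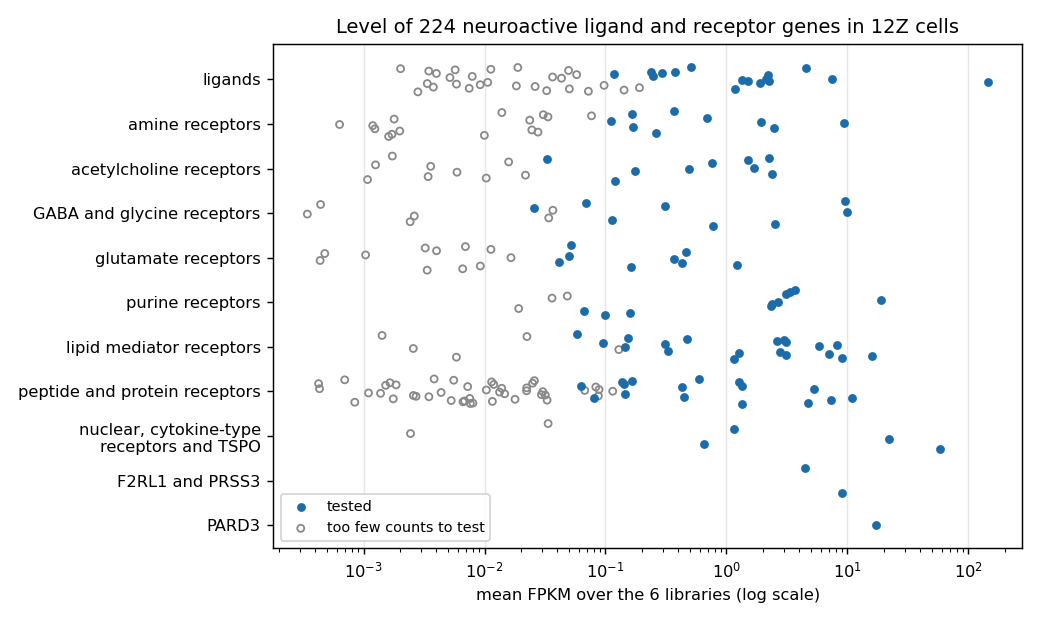
Mean FPKM over the 6 libraries (log axis) of each of the 224 members, 1 point per gene, by role. Filled points are the 102 tested genes and open points the 122 with too few counts; only 7 genes lie at 10 FPKM or more, and NPY at 146 stands apart from the other ligands.

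The 7 abundant members belonged to different families. NPY, which encodes the appetite-regulating and vasoconstricting peptide neuropeptide Y, had a mean of 146 FPKM. TSPO, a cholesterol-binding protein of the outer mitochondrial membrane, had 58.8 FPKM, and THRA, the thyroid hormone receptor alpha, had 22.2 FPKM. P2RX4, an ATP-gated cation channel, had 18.8 FPKM, PARD3 had 17.2 FPKM, the sphingosine 1-phosphate receptor S1PR3 had 16.0 FPKM and OXTR, the oxytocin receptor, had 10.8 FPKM. PARD3 encodes a cell polarity protein and is neither ligand nor receptor, but carries the pathway in the table and was kept. GABRE, just under 10 FPKM, GABBR1 at 9.51 FPKM and HRH1 at 9.30 FPKM completed the 10 most abundant members.

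The test was edgeR's quasi-likelihood test on TMM-scaled counts, and p-values were adjusted by Benjamini-Hochberg over the 13311 genes left by its filter on low counts. Fold changes are given on the log2 scale with their standard error (SE). The filter asks for about 10 counts in at least 3 libraries, and 102 members (45.5%, against 82.3% of other rows) passed it. Of these, 78 reached the minimum in all 6 libraries. CHRNE, GLP2R, GRIA1 and GRIN2C passed through the Control libraries alone and GAL through the treated libraries alone, so these 5 had to differ. No member had an adjusted p under 0.05 (edgeR), where 0.0301% of tested genes did, and the smallest adjusted p of any member was 0.0707. At an unadjusted p under 0.05, 32 members were lower with rhChem157S (31.4%) and 1 was higher (0.98%), beside 11.4% of all tested genes in each direction. With DESeq2, 23 members had an adjusted p under 0.05, all lower (22.5%, beside 6.0% of all genes tested in that direction and 4.58% in the other). Of these, 13 also had a log2 fold change under -1 (12.7%, beside 2.25% of all genes), and none had one over 1 (beside 0.496%). Over all genes 300 were lower and 66 higher at these DESeq2 thresholds. The paper, with DESeq2 and the same thresholds, reported the reverse balance, with more genes higher than lower. The source of this disagreement was not tested. In the same comparison limma on log2(FPKM + 1) called 6 members and 1.34% of all tested genes. Without rhChem157S 1 edgeR called 15 members and 6.24% of all genes tested, and without rhChem157S 3 it called 11 members and 3.07% of all genes. Of the members named by rule, ADORA2A, FPR1, GABRE, GLRB, GRIN3B, HCRTR1 and P2RX7 were called in both of these fits, OPRL1, OXTR and PRSS3 only without rhChem157S 1, and P2RX4, S1PR3 and TRPV1 only without rhChem157S 3. Less RNA per cell and fewer cells that hold it cannot be told apart in these bulk libraries.

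The middle of the distribution lay below that of other genes. The median log2 fold change of the tested members, rhChem157S over Control, was -0.48, and it was 0.01 over all tested genes. By library size alone the 2 medians were -0.61 and -0.12. A negative log2 fold change was found in 70 tested members (68.6%), beside 48.3% of all tested genes. Among other tested genes it was found in 69.7% under 0.1 FPKM and in 71.4% between 0.1 and 1 FPKM. In 37 members (36.3%) the highest treated value was under the lowest Control value on TMM-scaled CPM, beside 16.0% of all tested genes. The opposite order was seen in 4 members (3.92%), CHRM2, CHRNA5, GAL and PARD3, beside 16.5% of all tested genes. By library size alone only GAL had that order, beside 7.35% of all tested genes. Of the 78 members with the minimum in all 6 libraries, 28 were lower and 3 were higher in every treated library. The remaining 61 of the tested members overlapped between the groups. CHRNE, GLP2R, GRIA1, GRIN2C and GAL, which the filter admitted through 1 group alone, had to differ. Without them, 33 of 97 members were lower and 3 were higher in every treated library. A negative log2 fold change was then found in 66, and the median was -0.47.

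**Figure D2:**
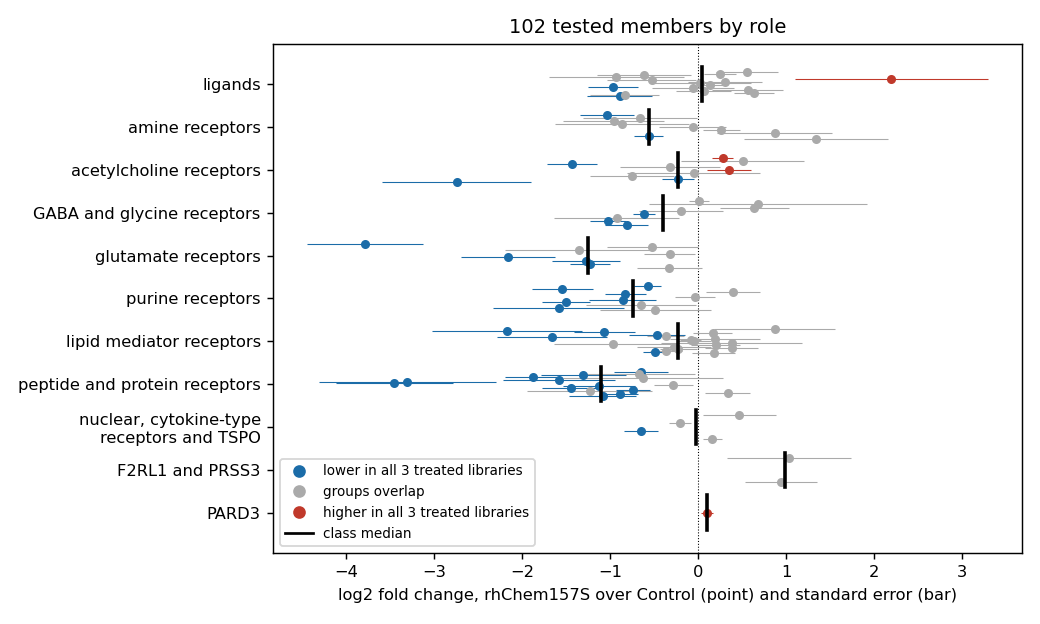
Log2 fold change of the 102 tested members, rhChem157S over Control (points), with the standard error (bars), by role; black lines are class medians. Of the members, 37 are lower in all treated libraries, 4 are higher and 61 overlap, and the medians of glutamate and peptide receptors are -1.25 and -1.11, or -0.88 and -1.09 without the 5 members that the filter admitted through 1 group alone.

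Genes of low abundance had lower medians in treated cells (-0.44 under 0.1 FPKM and -0.36 between 0.1 and 1 FPKM among genes outside the pathway), so members were set beside all other tested genes of the same abundance. Between 0.1 and 1 FPKM, 13 of 37 members (35.1%) were lower in every treated library, and 26.2% of 1891 other genes were. CHRNE, among the 13, had to be lower because of the filter, and GAL, also among the 37, had to be higher. Between 1 and 10 FPKM the shares lower in every treated library were 39.1% of 46 members and 17.8% of 5291 other genes, with medians of -0.15 and -0.03. Above 10 FPKM they were 2 of 7 members and 10.2% of 5687 genes, and under 0.1 FPKM 4 of 12 members and 22.9% of 340 genes. Of those 4, GLP2R, GRIA1 and GRIN2C had to be lower because of the filter, which leaves LPAR4 as 1 of 9. Among genes with a mean count of 20 or more, a split chosen after the data were seen, 35.7% of 84 members and 15.6% of 12701 other genes were lower. The median log2 fold changes of members and other genes were -0.94 and -0.44 under 0.1 FPKM, -0.66 and -0.36 between 0.1 and 1 FPKM, and -0.21 and 0.09 above 10 FPKM. Under 0.1 FPKM the 9 members left without GLP2R, GRIA1 and GRIN2C had a median of -0.48. The shares differed most in the range from 1 to 10 FPKM, where the medians were -0.15 and -0.03. Neither was tested.

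**Figure D3:**
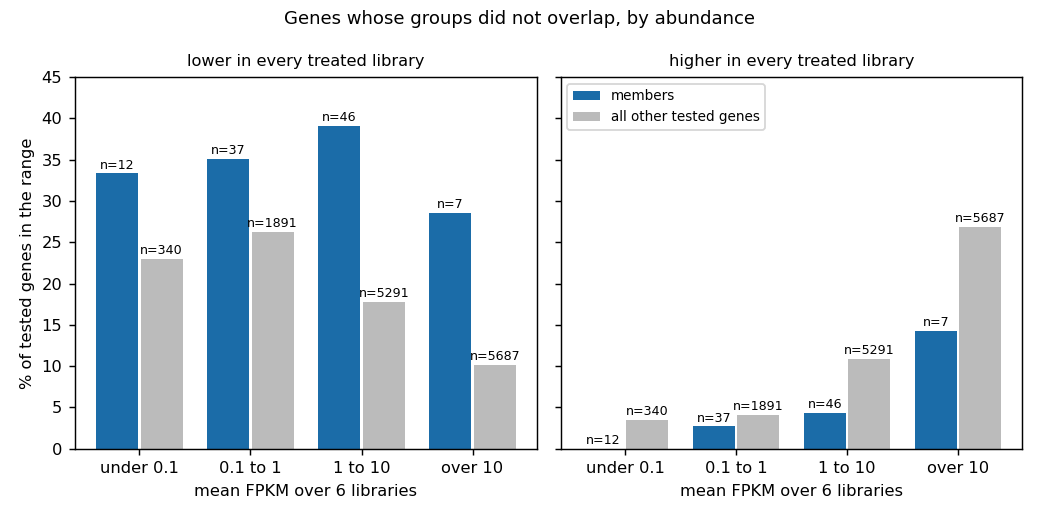
Percentage of tested genes (vertical axis) whose treated libraries were all below (left) or all above (right) the Control libraries, in 4 ranges of mean FPKM, for members (blue) and all other tested genes (grey), with the number of genes above each bar. In the range from 1 to 10 FPKM the shares are 39.1% and 17.8% on the left and 4.35% and 10.9% on the right.

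Ligands and receptors had different medians, and the difference between the 2 kinds was not tested. The median log2 fold change of the 16 tested ligand genes (of 43) was 0.04, which became -0.10 by library size alone. Among the 84 tested receptors of all kinds the median was -0.57. Of these, 35 were lower and 2 higher in every treated library, beside 16.0% and 16.5% of all tested genes. Among other tested genes the shares were 26.2% and 4.07% between 0.1 and 1 FPKM, and 17.8% and 10.9% between 1 and 10 FPKM. CHRNE, GLP2R, GRIA1 and GRIN2C, which the filter admitted through Control alone, had to be lower and are among the 35. GAL, admitted through the treated libraries alone, had to be higher. Without GAL the median of the 15 other ligands was 0.02. NPY measured 97.5, 98.3 and 168 FPKM in Control and 155, 170 and 189 FPKM with rhChem157S. Control 3 reached the treated range, so the groups overlapped. On the log2 scale the difference was 0.64 (SE 0.23, adjusted p = 0.171, edgeR), and 0.50 to 0.94 with any one library left out, and it was the 1 member higher at an unadjusted p under 0.05. NPY lies on chromosome 7 from 24284163 to 24291865 (GRCh38) and shares no exon bases with another gene.

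The other ligands were under 10 FPKM. NMB, the bombesin-like peptide neuromedin B, measured 7.21, 7.01 and 8.17 FPKM in Control and 7.11, 8.39 and 7.06 FPKM in treated cells. APLN, which encodes the vasoactive peptide apelin, had 4.38 ± 0.539 FPKM (SD, n = 3) and 4.75 ± 0.774 FPKM (SD, n = 3). Both overlapped. NMU, which encodes neuromedin U, a peptide named for contracting the uterus, was 2.79, 3.08 and 2.85 FPKM in Control and 1.93, 1.12 and 1.05 FPKM in treated cells, and UCN (urocortin) was 1.58 ± 0.0822 and 0.784 ± 0.256 FPKM (SD, n = 3 each). These were the 2 ligands lower in every treated library, with adjusted p of 0.133 and 0.211 (edgeR). PENK, the precursor of enkephalins, was 2.53, 1.67 and 3.33 FPKM against 1.79, 1.37 and 0.748 FPKM and overlapped. GAL, the precursor of galanin, had 0, 9 and 0 counts in Control and 12, 17 and 11 counts in treated cells, which is too few to set its size (adjusted p = 0.275, edgeR). The ligands named after NPY were chosen after their values were seen.

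Several expressed ligands had little or no transcript of their own receptor beside them. NPY at 146 FPKM stood beside NPY1R at 0.145 FPKM, and NPY5R had at most 5 counts. NMB at 7.49 FPKM stood beside NMBR at 0.0304 FPKM and GRPR at 0.0832 FPKM. NPBWR1 and NPBWR2, the receptors of neuropeptides B and W, had at most 1 count in any library while NPW was at 2.27 FPKM. NMUR1 was at 0.0133 FPKM and NMUR2 had at most 1 count beside NMU at 2.14 FPKM. The pair with the most receptor transcript was ADCYAP1, the precursor of PACAP, at 0.508 FPKM with VIPR2 at 1.34 FPKM. These pairs were drawn up from textbook knowledge after the values were seen, and transcript levels do not give the amount of peptide or receptor.

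Among the purine receptors, 6 of 10 tested genes were lower in every treated library and 9 had a negative log2 fold change (class median -0.74). Over all tested genes these shares were 16.0% and 48.3%. P2RX7, an ATP-gated channel known for driving inflammasome activation, was 3.55, 3.45 and 3.50 FPKM in Control and 1.49, 1.31 and 0.623 FPKM with rhChem157S. The Control SD was 0.0511 FPKM (n = 3), and every treated library lay far below that narrow range. This was a log2 fold change of -1.50 (SE 0.27, adjusted p = 0.0752, edgeR), and -1.24 to -1.72 with any one library left out. P2RX4 was 22.1, 25.1 and 26.9 FPKM in Control and 15.3, 15.6 and 7.63 FPKM in treated cells, a log2 fold change of -0.83 (SE 0.23, adjusted p = 0.123, edgeR). P2RX7 and P2RX4 lie close together on the plus strand of chromosome 12, from 121132819 to 121188032 and from 121209857 to 121234106. The related channel gene P2RX5 overlapped, at 2.82 ± 0.420 and 2.50 ± 0.379 FPKM (SD, n = 3 each).

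The 3 adenosine receptors that were tested differed among themselves. ADORA2A, whose receptor raises cyclic AMP, was 6.14, 4.63 and 4.48 FPKM in Control and 2.22, 1.88 and 0.754 FPKM in treated cells. The log2 fold change was -1.54 (SE 0.35, adjusted p = 0.0948, edgeR). ADORA1, whose receptor lowers cyclic AMP, was 4.55 ± 0.181 and 2.79 ± 0.263 FPKM (SD, n = 3 each), without overlap and with an adjusted p of 0.115 (edgeR). ADORA2B, the low-affinity receptor, went the other way in rhChem157S 3, with 2.48, 2.56 and 3.49 FPKM in Control and 2.26, 3.06 and 4.78 FPKM in treated cells, and overlapped. ADORA2A shares 2380 of its 4193 exon bases with the readthrough gene SPECC1L-ADORA2A, so its counts depend on how shared reads were assigned.

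All 8 tested glutamate receptor genes had a negative log2 fold change, and 4 were lower in every treated library (class median -1.25). GRIA1 and GRIN2C, which passed the filter through Control alone, had to be lower, and without them these figures were 6 of 6, 2 and -0.88. Over all tested genes 48.3% had a negative value and 16.0% were lower in every treated library. Among other tested genes a negative value was found in 69.7% under 0.1 FPKM and in 71.4% between 0.1 and 1 FPKM. No tested glutamate receptor gene was above 2 FPKM in any library. GRIN3B, a subunit of NMDA-type channels, was the most abundant, with 1.49, 1.88 and 1.90 FPKM in Control and 0.781, 0.769 and 0.511 FPKM in treated cells. Its groups did not overlap, and its log2 fold change was -1.23 (SE 0.23, adjusted p = 0.0752, edgeR). GRIN2D, another NMDA receptor subunit, was 0.626 ± 0.221 and 0.238 ± 0.0935 FPKM (SD, n = 3 each; adjusted p = 0.135, edgeR). GRIA1, an AMPA receptor subunit, had 27, 23 and 13 counts in Control and 2, 1 and 1 in treated cells, and GRIN2C had 22, 28 and 13 against 4, 5 and 4. At these counts the size of the difference is poorly set. GRIK2, GRIN2A, GRM2 and GRIK5 overlapped between groups.

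Of the GABA and glycine receptors, 3 of 8 tested genes were lower in every treated library and none was higher in all of them. Over all tested genes the shares lower and higher were 16.0% and 16.5%. GABRE, the epsilon subunit of GABA-A receptors on the X chromosome (151953124 to 151974680), was 12.3, 12.5 and 12.6 FPKM in Control and 8.98, 7.76 and 5.79 FPKM in treated cells. Its log2 fold change was -0.61 (SE 0.12, adjusted p = 0.0785, edgeR), the smallest standard error among the lower members named by the rule. GLRB, the beta subunit of the glycine receptor, was 3.57, 3.60 and 3.29 FPKM in Control and 1.96, 1.63 and 1.15 FPKM with rhChem157S (log2 fold change -1.02, SE 0.21, adjusted p = 0.0774, edgeR). No gene for a glycine receptor alpha subunit passed the filter. GABBR1, a subunit of the metabotropic GABA-B receptor, was 9.76, 9.99 and 9.92 FPKM in Control and 10.04, 10.2 and 7.16 FPKM in treated cells. Its log2 fold change was 0.01 and turned to -0.11 by library size alone.

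Acetylcholine receptors were divided. CHRM4, the muscarinic receptor M4, was 1.51, 2.51 and 2.68 FPKM in Control and 0.797, 0.887 and 0.589 FPKM in treated cells, a log2 fold change of -1.43 (SE 0.28, adjusted p = 0.0752, edgeR). CHRM2, the muscarinic receptor M2, which like M4 acts through inhibitory G proteins, was 2.10, 2.09 and 2.16 FPKM in Control and 2.51, 2.55 and 2.02 FPKM in treated cells. On TMM-scaled CPM its treated libraries were all above Control, with a log2 fold change of 0.28 (SE 0.12, adjusted p = 0.219, edgeR), but in FPKM rhChem157S 3 lay below the Control values. CHRNA5, a nicotinic subunit, was 1.05, 1.87 and 1.73 against 1.88, 1.77 and 1.77 FPKM and likewise separated on TMM-scaled CPM alone (adjusted p = 0.423, edgeR). CHRNB1, the muscle-type beta subunit and the most abundant of the class, was 2.67 ± 0.149 and 2.09 ± 0.333 FPKM (SD, n = 3 each), a log2 fold change of -0.23 (adjusted p = 0.469, edgeR), and -0.33 to -0.13 with any one library left out. CHRNE had 16, 27 and 16 counts in Control and 2, 6 and 0 in treated cells, and 1172 of its 2864 exon bases are shared with another gene.

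Of the 9 tested amine receptors only HTR1D and ADRA1B were lower in every treated library, beside 16.0% of all tested genes. HRH1, the histamine H1 receptor, was the most abundant at 7.93, 8.48 and 10.3 FPKM in Control and 7.35, 9.99 and 11.7 FPKM in treated cells, with overlap (log2 fold change 0.27, adjusted p = 0.463, edgeR, and 0.05 without rhChem157S 3 to 0.45 without rhChem157S 1). HTR1D, a serotonin receptor, was 3.44, 2.96 and 2.80 against 2.14, 1.98 and 1.60 FPKM (log2 fold change -0.56, adjusted p = 0.133, edgeR). ADRA1B, an alpha-1 adrenergic receptor, was 0.511 ± 0.112 and 0.229 ± 0.0801 FPKM (SD, n = 3 each; adjusted p = 0.130, edgeR). DRD4, HTR7, HTR1B, ADRA2A and DRD2 overlapped. HTR7 stood at 0.761 FPKM in rhChem157S 3 and between 0.0835 and 0.252 FPKM in the other 5 libraries.

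Peptide and protein receptors had the most members lower in every treated library, 11 of 16 tested, and 15 had a negative log2 fold change (class median -1.11). The class as counted also holds TRPV1, a channel, and GLP2R, which the filter admitted through Control alone. Without both, 9 of 14 were lower in every treated library and 13 had a negative value (median -1.11). Over all tested genes these shares were 16.0% and 48.3%. Among other tested genes they were 26.2% and 71.4% between 0.1 and 1 FPKM, and 17.8% and 53.8% between 1 and 10 FPKM. OXTR, which mediates contraction in the uterus, was 13.04, 12.4 and 16.4 FPKM in Control and 10.2, 6.28 and 6.49 FPKM in treated cells. Its log2 fold change was -0.74 (SE 0.19, adjusted p = 0.109, edgeR), and rhChem157S 1, at 10.2 FPKM, was the treated library nearest to Control. OXTR lies on the minus strand of chromosome 3 from 8750408 to 8769628. FPR1, the formyl peptide receptor of innate immune cells, was 2.19, 1.53 and 2.42 FPKM in Control and 0.669, 0.424 and 0.439 FPKM with rhChem157S. It had the smallest adjusted p of any member (0.0707, edgeR), with a log2 fold change of -1.88 (SE 0.32). The heat and capsaicin channel TRPV1 was 5.46, 6.50 and 7.14 FPKM in Control and 3.58, 3.86 and 2.07 FPKM in treated cells (log2 fold change -0.89, SE 0.21, adjusted p = 0.102, edgeR), and shares 1519 of 5519 exon bases with another gene on the same strand.

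HCRTR1, the orexin receptor 1, had the widest difference among members with a mean count of 20 or more. It had 73, 114 and 59 counts in Control and 8, 12 and 1 in treated cells, or 0.718, 1.08 and 0.570 FPKM against 0.0727, 0.115 and 0.00931 FPKM. The log2 fold change was -3.46 (SE 0.66, adjusted p = 0.0752, edgeR), between -2.98 and -4.11 with any one library left out. OPRL1, the nociceptin receptor, was 0.765, 0.620 and 0.632 FPKM in Control and 0.310, 0.209 and 0.162 FPKM in treated cells (log2 fold change -1.44, SE 0.33, adjusted p = 0.0952, edgeR). GIPR and VIPR2, receptors for the incretin GIP and for VIP and PACAP, were 2.06 ± 0.591 against 0.643 ± 0.469 and 1.86 ± 0.359 against 0.815 ± 0.493 FPKM (SD, n = 3 each). Both were lower in every treated library. SSTR1, a somatostatin receptor, had the only positive value of the class, 6.81 ± 2.54 against 7.86 ± 1.25 FPKM (SD, n = 3 each), and overlapped.

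**Figure D4:**
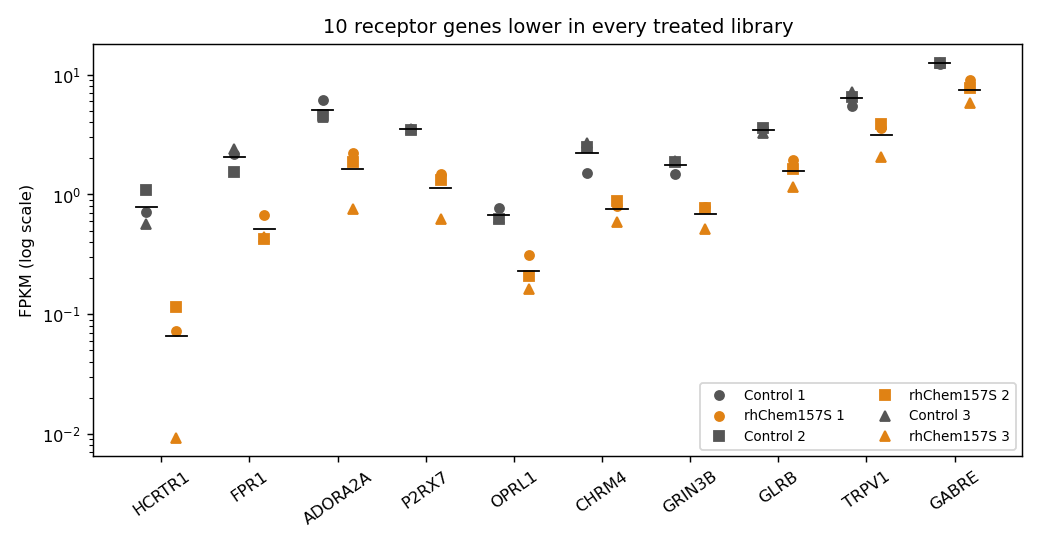
FPKM (log axis) of the 10 receptor genes with the smallest p among those lower in every treated library and with a mean count of 20 or more, 1 symbol per library (grey Control, orange rhChem157S) with bars at the group means. No orange symbol reaches a grey one in its gene; rhChem157S 3 (triangle) reads 0.00931 FPKM in HCRTR1 and 0.623 in P2RX7.

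Lipid mediator receptors were expressed most widely, with 19 of 24 genes tested (class median -0.22). In every treated library 5 were lower, beside 16.0% of all tested genes and 17.8% of other genes between 1 and 10 FPKM. S1PR3 was 19.3, 17.3 and 19.6 FPKM in Control and 12.5, 10.9 and 16.3 FPKM in treated cells, which separated in FPKM but overlapped on TMM-scaled CPM (log2 fold change -0.36, SE 0.18, adjusted p = 0.272, edgeR). Without rhChem157S 3 its log2 fold change was -0.60 with an adjusted p of 0.0320 (edgeR), and without rhChem157S 2 it was -0.23. S1PR5, another receptor for sphingosine 1-phosphate, was 10.96 ± 1.35 and 7.20 ± 1.24 FPKM (SD, n = 3 each) and did not overlap. S1PR1 was 7.95, 5.86 and 5.60 against 7.85, 4.77 and 10.3 FPKM and overlapped, and so did S1PR2. Of the lysophosphatidic acid receptors LPAR2 and LPAR4 were lower in every treated library, while LPAR1, LPAR3 and LPAR6 overlapped. The leukotriene B4 receptors LTB4R and LTB4R2, whose exons overlap, were 8.84 ± 0.380 against 7.65 ± 1.47 and 6.16 ± 1.11 against 5.46 ± 1.05 FPKM (SD, n = 3 each). The prostaglandin F receptor gene PTGFR, of a family that acts on uterine muscle, was 2.53, 2.72 and 2.79 FPKM in Control and 3.86, 3.20 and 1.49 FPKM in treated cells, on both sides of the Control range.

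The remaining members fell in none of these classes. TSPO was 62.3, 53.4 and 58.4 FPKM in Control and 66.4, 63.1 and 49.3 FPKM in treated cells. THRA was 26.5, 24.4 and 23.3 against 24.0, 19.5 and 15.7 FPKM, and also overlapped. Their log2 fold changes were 0.16 and -0.21 (adjusted p = 0.402 and 0.360, edgeR), and with any one library left out they lay between 0.10 and 0.24 and between -0.34 and -0.10. THRB, the second thyroid hormone receptor gene, was 0.820 ± 0.0555 and 0.479 ± 0.111 FPKM (SD, n = 3 each) and did not overlap. PARD3 was 17.3, 17.8 and 16.95 FPKM in Control and 17.3, 17.6 and 16.1 FPKM in treated cells, with a log2 fold change of 0.10 that turned to -0.03 by library size alone. F2RL1, the trypsin-activated receptor PAR2, was 2.12, 3.42 and 3.99 FPKM in Control and 1.69, 3.25 and 12.2 FPKM in treated cells, and PRSS3, a trypsinogen, was 5.22, 7.41 and 7.30 against 5.74, 10.9 and 17.7 FPKM. Both had their highest value in rhChem157S 3 and overlapped between groups. The log2 fold change of PRSS3 was 0.94, and 0.41 without rhChem157S 3 and 1.27 without rhChem157S 1, where its adjusted p was 0.0443 (edgeR). PRSS3 has close relatives in the genome, as do CHRNA7, NPY4R and RLN2, and reads of these genes may be shared with their copies.

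Channels and G protein-coupled receptors were compared across families. Of 23 tested ion channel subunits 21 had a negative log2 fold change and 12 were lower in every treated library (median -0.83). Without CHRNE, GRIA1 and GRIN2C, which the filter admitted through Control alone, 18 of 20 and 9 remained (median -0.68). For 57 tested G protein-coupled receptors these counts were 40 and 22 (median -0.48), GLP2R among them. The difference between the 2 kinds was not tested. Over all tested genes 48.3% had a negative log2 fold change and 16.0% were lower in every treated library. Among other tested genes these shares were 71.4% and 26.2% between 0.1 and 1 FPKM, and 53.8% and 17.8% between 1 and 10 FPKM. Proteins that carry the signal from these receptors (G protein subunits, adenylyl cyclases, phospholipases and their regulators) were drawn up as a list of 59 genes with earlier results known, and 53 were tested. Their median log2 fold change was 0.06, beside 0.01 over all tested genes. In every treated library 8 were lower and 12 higher, beside 16.0% and 16.5% of all tested genes. At an unadjusted p under 0.05 (edgeR) 6 were lower and 8 higher, beside 11.4% of all tested genes in each direction. None had an adjusted p under 0.05 (edgeR). Other tested genes above 10 FPKM had a median of 0.09, with 10.2% lower and 26.9% higher in every treated library.

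Values were also compared by library. The median of all tested members, as log2 CPM relative to the Control mean, was -0.05, 0.00 and 0.03 in Control and -0.25, -0.43 and -0.45 in treated cells. For peptide and protein receptors it was -0.60, -0.78 and -0.96, for glutamate receptors -0.65, -0.81 and -0.87 and for purine receptors -0.41, -0.64 and -0.59 in rhChem157S 1, 2 and 3. For lipid mediator receptors it was -0.05, -0.21 and -0.44. For ligands it was -0.09, 0.08 and 0.06, on both sides of the Control values. These medians include members that the filter admitted through 1 group alone and that had to differ. They are GRIA1 and GRIN2C for glutamate receptors, GLP2R for peptide and protein receptors and GAL for ligands. Without them the median log2 fold change was -0.88 for glutamate receptors and -1.09 for peptide and protein receptors. The share of all counts that fell on members was 0.132, 0.134 and 0.143% in Control and 0.119, 0.112 and 0.105% in treated cells. Members above 1 FPKM numbered 52, 53 and 54 against 48, 46 and 40. Both measures rest on library totals without TMM scaling. By library size alone the median log2 fold change of all tested genes was -0.12. Other genes above 1 FPKM were not counted by library. Of the 37 lower members, the lowest treated value was in rhChem157S 3 in 22, in rhChem157S 2 in 10 and in rhChem157S 1 in 5. With any one library left out, the median of the members' log2 fold changes lay between -0.54 and -0.38.

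**Figure D5:**
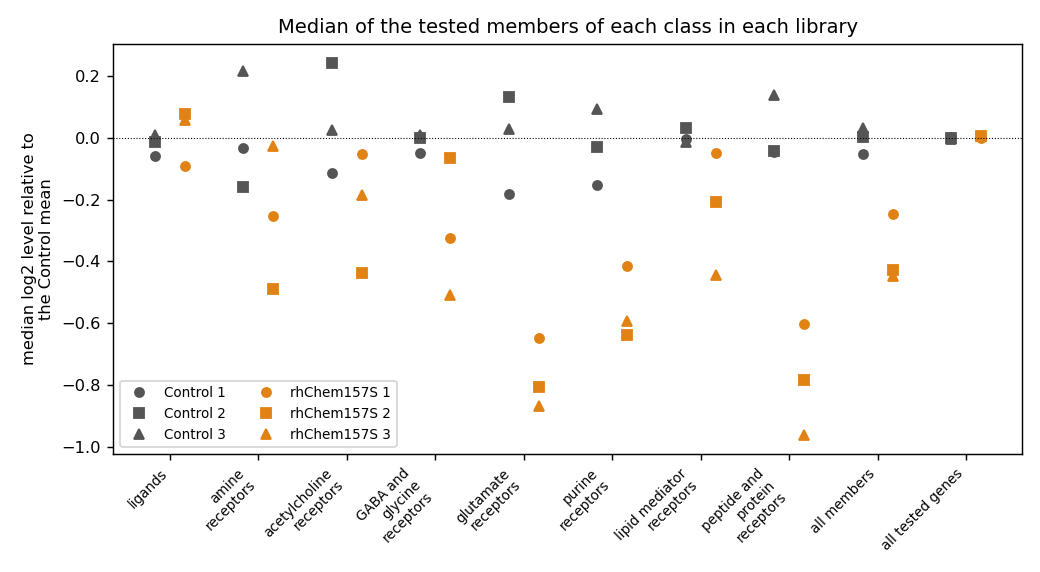
Median log2 CPM of the tested members of each class in each library, relative to the Control mean (grey Control, orange rhChem157S, symbols by replicate). All treated medians of glutamate, purine and peptide receptors lie below Control, from -0.41 to -0.96, while those of ligands lie between -0.09 and 0.08 and those of all tested genes at 0. The medians include GRIA1 and GRIN2C (glutamate), GLP2R (peptide) and GAL (ligands), which had to differ because of the filter.

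Neuron marker genes also had lower values in treated cells. Of 10 such genes 8 were tested. Their median log2 fold change was -0.68. RBFOX3, SYT1, STMN2, MAP2, NEFM and SYN1 stayed under 1 FPKM in every library. Between 0.1 and 1 FPKM, 71.4% of other tested genes had a negative value and 26.2% were lower in every treated library. Of the 8 markers, 7 had a negative value and 3 were lower in every treated library, beside 48.3% and 16.0% of all tested genes. Their summed level was 9.66 to 12.5 FPKM in Control and 5.71 to 6.96 FPKM with rhChem157S, the highest of them being SNAP25, a vesicle fusion protein (6.26, 7.08 and 6.88 against 3.40, 3.96 and 3.01 FPKM; adjusted p = 0.0692, edgeR). ELAVL4 had at most 1 count and ELAVL3 at most 6 in any library. Of 6 neuroendocrine markers 3 were tested, with a median of 0.40 and overlapping groups, and the most abundant, SCG2, was 4.48, 7.62 and 16.95 against 5.53, 17.2 and 16.7 FPKM. The monocyte receptor gene CD14, 51.5, 41.1 and 36.9 against 21.2, 15.2 and 6.64 FPKM, was also lower, although PTPRC, the gene of the pan-leukocyte protein CD45, had at most 12 counts, and the macrophage gene CD68 overlapped at 70.0, 86.5 and 134.5 against 80.2, 121 and 86.0 FPKM. The part of these genes, and that of library rhChem157S 3, in the members' values was not tested.

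Exons of 33 of the 102 tested members share bases with another gene in GENCODE release 29 (GRCh38). Besides those given above, NPFF (592 of 592 exon bases), NPB (1941 of 2161), VIPR2 (2021 of 5222) and P2RX5 (1743 of 4190) are the most affected of those described here. Without the strand setting, reads of a member and of a gene on the opposite strand cannot be told apart. Of the 14 pathway genes left out, 12 were tested, with -0.39 as their median log2 fold change and none with an adjusted p under 0.05 (edgeR). In every treated library 5 of them were lower and none higher, beside 16.0% and 16.5% of all tested genes.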

How the data were processed

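The authors trimmed reads with fastp, aligned them with HISAT2 to GRCh38.p13, counted reads per gene with HTSeq and computed FPKM. Deposited were the raw counts and, for the same 16279 genes, the FPKM. Tool versions other than R 3.2.0, the annotation release and the strand setting are not given in the sources used here. The 89195 FPKM values compared could be rebuilt from count, gene length and library total, with a largest relative difference of 4.77e-07. Both tables also hold pathway and description columns, and no column of per-sample values was left unused.

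The counts went into edgeR 4.0.16 under R 4.3.3 (TMM, quasi-likelihood test, Benjamini-Hochberg adjustment over 13311 genes). Also tried were limma 3.58.1 on log2 FPKM with pseudocounts of 1 and 0.1, DESeq2 1.42.0, other scalings and filters, the replicate number as a block, and each library left out. DESeq2 with each library left out and the split at a mean count of 20 were added after the data were seen. Scripts were tested on simulated data. Groups are from the labels. With 3 libraries per group an exact permutation test cannot go below p = 0.10. Counting intervals cover counting error only and depth was 35430881 to 38341643 counts.

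The members, role classes and lists were chosen with earlier results of these data known. Named by rule were members with an adjusted p under 0.05, the 10 most abundant, the most abundant of each class, the 10 lower and 6 higher with the smallest p among those whose groups did not overlap and whose mean count was 20 or more (3 were higher), and the 2 untested members with the most counts. Others were named after their values were seen, and the values of some members are not reported here. Promoters came from RefSeq (GRCh38.p14) and gene positions and shared exon bases from GENCODE release 29.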

Additional observations from a re-analysis of the deposited data

How the results depend on the processing

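The count of members with an adjusted p under 0.05 (0 with edgeR) was 23 with DESeq2 and 6 with limma on log2(FPKM + 1). Leaving out each library gave 0 to 15 with edgeR, the highest without rhChem157S 1. With DESeq2, a setting chosen after the data were seen, it gave 32 without rhChem157S 1 (20.2% of all tested genes were called), 20 without rhChem157S 3 (14.2%), 13 without Control 3 (4.37%) and 11 without any one of the others (2.32% to 5.96%). Members higher at an unadjusted p under 0.05 (1) numbered 3 with DESeq2, 0 by library size, 4 without a filter, 2 with either limma fit, 2 with the replicate block and 1 to 7 with each library left out. Over all tested genes these shares were 12.1%, 4.83%, 9.94%, 4.71% and 4.72%, 12% and 5.49% to 14.6%. The median log2 fold change of tested members (-0.48) was -0.61 by library size, -0.61 without a filter and -0.35 at a mean count of 20 or more. It was -0.54 to -0.38 with each library left out and -0.13 with limma on log2(FPKM + 1), which compresses low genes. Over all tested genes the median was -0.12 by library size and -0.08 with that limma fit, against 0.01 in the main fit. Members higher in every treated library (4) numbered 1 by library size, 8 without a filter and 5 to 11 with each library left out. Over all tested genes these shares were 7.35%, 14.1% and 18.5% to 24.4%. Members lower at an unadjusted p under 0.05 (32) and lower in every treated library (37) numbered 25 to 38 and 39 to 48 with each library left out, where fewer libraries make non-overlap easier. Over all tested genes the shares in these fits were 6.89% to 15.5% and 18% to 25.4%. Over 23 named members and 14 settings, 275 values kept direction and side of the threshold, 38 gained a call and 9 reversed. No call could be lost, since none of these members had one. The reversed values were those of GABBR1 (0.01), at -0.11 by library size, -0.12 and -0.13 with limma at pseudocounts of 1 and 0.1, -0.000735 with the replicate block, -0.0394 without rhChem157S 1 and -0.0753 without rhChem157S 2 (range with each library left out -0.0753 to 0.118), and of PARD3 (0.10), at -0.0286 by library size and -0.0276 and -0.0291 with the limma fits. The cause was not tested. Same-numbered libraries correlated at 0.2435, 0.001 and 0.2494 in their deviations from the group means, so the numbers were not taken as pairs. With the replicate block, 33 members were lower and 2 higher at an unadjusted p under 0.05, beside 13.3% and 12% of all tested genes. The median of the members was then -0.52 and 0 had an adjusted p under 0.05. Depth limits the 95 members under 10 counts in every library, none of which was tested. Without the filter on low counts, 41 of 224 members were lower at an unadjusted p under 0.05, beside 10.1% of all 16279 genes. In that fit 48 members were lower in every treated library, beside 14.3% of all genes.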
